A study of Homo sapiens with 9 samples.

Results

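NB4 cells without the histone demethylase LSD1 were set against wild-type NB4 cells. The 4 libraries compared, of 9 in the series, were chosen by their labelled genotype: 2 came from cells with LSD1 knocked out (KO) and 2 from wild-type (WT) cells, all labelled as not treated. NB4, an established human line of acute promyelocytic leukaemia, has the PML-RARA fusion gene, and KO and WT cells share that background. The names of both KO libraries carry a single line name, and the sources used here do not give the number of clones or separate cultures, so the p-values below measure only the spread between these libraries, which may be technical. The other 5 libraries of NB4 cells, 1 each, were treated for 24 h with vehicle (DMSO), with the LSD1 inhibitor MC_2580, with retinoic acid (RA) at 0.01 uM or 1 uM, or with MC_2580 and RA at 0.01 uM, called the combination here.

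LSD1, encoded by KDM1A, removes methyl groups from lysine 4 of histone H3. It works in the CoREST complex with RCOR proteins and histone deacetylases, and the repressors GFI1 and GFI1B bring it to DNA through their SNAG domain. In myeloid cells LSD1 is known to restrain genes of maturation, many of them also bound by the factors PU.1 and C/EBP.

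Expression is given in FPKM, fragments scaled by transcript length and by the number mapped, in the order KO 1, KO 2, WT 1 and WT 2. Of 17537 protein-coding genes with 1 locus in the table, 10110 had a mean of at least 1 FPKM in KO or in WT and were tested; 7426 were below that level. Differences are KO minus WT on the log2(FPKM + 1) scale, over 2 libraries a group, with the moderated standard error (SE) of limma. That SE draws the spread of each gene toward the spread of genes of like level. It can be larger or smaller than the libraries of that gene alone would give. "Rose" or "fell" is written only at a limma adjusted p under 0.05. The log2(FPKM + 1) scale understates the change of genes with low values. Between 9630 and 10035 protein-coding genes reached 1 FPKM per library, and relative to WT 1, 1 FPKM stood for 1.04-fold the reads in KO 1, 1.33-fold in KO 2 and 1.65-fold in WT 2. The 10 highest loci held 50.5% to 56.9% of the FPKM sum, and libraries of 1 genotype differed by 2-fold or more at 3.44% (KO) and 3.75% (WT) of the tested genes. In these bulk samples, fewer cells of a type and less RNA per cell cannot be told apart.

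KDM1A itself, listed under its older name AOF2, was at 13.96 and 16.8 FPKM in the KO libraries and at 49.8 and 66.6 in WT. Both KO values lay below both WT values, and the mean was 3.78-fold higher in WT. Its transcript was thus still present in both KO libraries. The difference of -1.84 (SE 0.23) missed the threshold (limma adjusted p = 0.0608), and it ranged from -2.05 to -1.64 when 1 library was left out. The defining genes of promyelocytes were measured in every library. Myeloperoxidase (MPO), the main enzyme of their primary granules, stood at 5503, 5977, 5200 and 5613 FPKM. The serine protease PRTN3 was at 107, 359, 90.8 and 313 FPKM, higher in the second library of either genotype. The progenitor factor MYB lay at 108, 154, 102 and 121 FPKM. None of the 11 tested promyelocyte markers passed the test, and their median difference of 0.22 was 0.14 without WT 2, 0.15 without KO 1, 0.36 without KO 2 and 0.46 without WT 1.

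In KO cells 59 of the tested genes (0.584%) passed: 43 rose (0.425%) and 16 fell (0.158%). Those that rose include the myeloid lectin CLEC5A, the alarmins S100A8 and S100A9, the chemokine receptor CCR2, the T cell genes CD2, CD3G and GZMA, the B cell gene CD79A and the transcription factors SOX4 and CUX2. Genes that fell include the matrix enzyme PXDN, the granule proteins PRG2 and DEFA4, the adhesion molecule EPCAM, the channel KCNH2, the ligands BMP2 and CCL2, and the receptor RET. KO and WT values did not overlap for any of the 59 genes, whose adjusted p lay between 0.0221 and 0.0493. Non-overlap alone was common: 18.7% of all tested genes were higher and 16.8% lower in both KO libraries. At 2-fold or more for both replicate numbers, 191 genes (1.89%) were higher and 71 (0.702%) lower.

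The count depended on what was tested. A fit over all 13156 loci called 15 (0.114%), 8 higher and 7 lower, and 4 of the 59 genes were among them: CLEC5A, RTN4RL2, PXDN and DEFB1. Leaving out KO 1, KO 2, WT 1 or WT 2 gave 127, 163, 312 or 262 calls, each with all 59 genes, with the single library left in a group taken to have the spread of the other group. The authors' deposited table sets KO 1 against WT 1 and KO 2 against WT 2. The labels do not say that these numbers pair libraries. Over genes, KO 1 minus KO 2 correlated with WT 1 minus WT 2 at r = 0.84, which the main fit does not model. With the replicate number as a block limma called 2903 genes, KDM1A and all 59 among them. A gene short of the threshold in the main fit is thus not shown to be unchanged. Medians with 1 library left out also carry the difference between replicate numbers. By the calls in the authors' deposited table, 51 of the tested genes were significant for both numbers (0.504%), 38 higher and 13 lower. Of the genes called here, 20 of those that rose and 7 of those that fell were significant for both numbers in the authors' deposited table, and 23 of the 59 for neither.

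**Figure D1:**
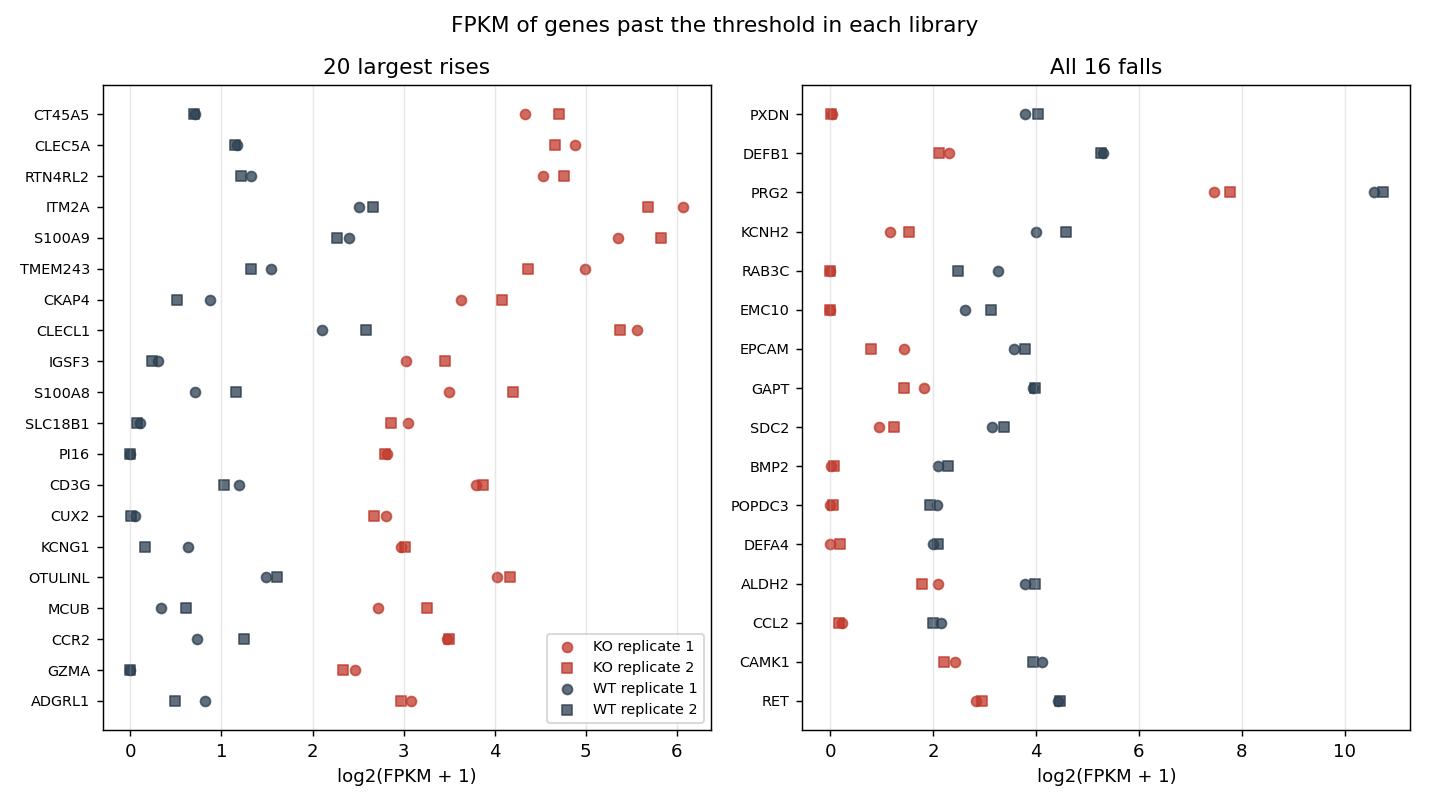
Expression of the 20 largest rises (left) and of all 16 falls (right) on a log2(FPKM + 1) axis, with 1 point per library, red for KO and dark blue for WT, circles for replicate 1 and squares for replicate 2. In each row both red points lie to one side of both dark points, and several genes lie at 0 in 1 genotype.

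Several of the rises were of receptors and other surface proteins. CLEC5A, a C-type lectin receptor of myeloid cells that signals through the adaptor TYROBP, was at 28.5 and 24.4 FPKM in KO and at 1.25 and 1.22 in WT, a difference of 3.61 (SE 0.18). The adaptor TYROBP, outside the naming rule, was at 15.1, 14.3, 24.9 and 17.7 FPKM and did not pass. RTN4RL2, a lipid-anchored relative of the Nogo receptor, measured 22.1 and 26.1 FPKM in KO against 1.501 and 1.33 (3.37, SE 0.18). ITM2A, an integral membrane protein, was high in KO at 66.3 and 50.6 FPKM and low in WT at 4.70 and 5.32 (3.30, SE 0.21). CLECL1, a lectin-like membrane protein, had 46.5 and 40.6 FPKM against 3.29 and 5.001 (3.13, SE 0.24). IGSF3, a membrane protein of the immunoglobulin superfamily, went from 0.229 and 0.182 FPKM in WT to 7.12 and 10.0 in KO (2.97, SE 0.22). The adhesion G protein-coupled receptor ADGRL1 had 7.47 and 6.84 FPKM in KO and 0.760 and 0.405 in WT (2.37, SE 0.20). SIRPB2, of the signal-regulatory protein family, was the only one of 25 tested myeloid immunoglobulin-like receptors to pass, at 19.4 and 15.2 FPKM against 3.22 and 3.64 (2.04, SE 0.20). Of those 25 receptors 21 had a difference above 0 and 9 were higher without overlap (18.7% of all tested genes were), with a median of 0.28 where the median of all tested genes was -0.02. That median was 0.09 without KO 1, 0.14 without WT 2, 0.46 without WT 1 and 0.48 without KO 2. Of the 25 genes 9 lie on chromosome 19. On that chromosome 42.1% of all tested genes were higher without overlap, with a median of 0.25.

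Among 15 tested C-type lectins and their signalling partners only CLEC5A passed, 8 were higher without overlap (53.3%, where 18.7% of all tested genes were), and the median of 0.31 ranged from 0.19 to 0.499 when single libraries were left out, lowest without WT 2 or KO 1 and highest without WT 1. Of these 15 genes 3 lie on chromosome 19, where 42.1% of all tested genes were higher without overlap. The lectin-family growth factor CLEC11A was at 497, 392.4, 277 and 305 FPKM. The kinase SYK, which carries the signal of such receptors, was at 44.2, 51.0, 31.8 and 35.7 FPKM, also without overlap and short of the threshold (difference 0.49, SE 0.20). Beside these, none of 13 integrins and none of 25 haematopoietic cytokine receptors passed, with medians of 0.19 and 0.33. The median of the integrins was 0.30 without KO 1, and that of the cytokine receptors was 0.03 without WT 2 and 0.10 without KO 1. The integrin chain ITGA4 had 110, 128, 100 and 108 FPKM, and the shared cytokine receptor chain IL2RG had 75.2, 61.9, 130 and 72.5.

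The promoters of the 5 largest rises that have an entry in the RefSeq table (GRCh38.p14) are shown, from 250 bases before to 50 after the gene start. CT45A5 and RTN4RL2, also among the largest rises, have no entry. Capitals mark GAGGAA on either strand, the core bound by PU.1; AAATCA, the core bound by GFI1, and TTGCNNAA, a core bound by C/EBP, were searched too and were found in none of the 5. The windows are chr7:141946925-141947224 (minus strand) for CLEC5A, chrX:79367285-79367584 (minus) for ITM2A, chr1:153357604-153357903 (plus) for S100A9, chr7:87220490-87220789 (minus) for TMEM243 and chr12:106247971-106248270 (minus) for CKAP4.
CLEC5A: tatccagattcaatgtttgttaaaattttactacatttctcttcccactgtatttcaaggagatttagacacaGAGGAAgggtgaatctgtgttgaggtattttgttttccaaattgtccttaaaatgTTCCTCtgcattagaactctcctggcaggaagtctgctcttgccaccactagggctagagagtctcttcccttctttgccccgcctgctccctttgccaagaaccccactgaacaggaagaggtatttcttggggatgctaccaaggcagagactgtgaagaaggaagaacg
ITM2A: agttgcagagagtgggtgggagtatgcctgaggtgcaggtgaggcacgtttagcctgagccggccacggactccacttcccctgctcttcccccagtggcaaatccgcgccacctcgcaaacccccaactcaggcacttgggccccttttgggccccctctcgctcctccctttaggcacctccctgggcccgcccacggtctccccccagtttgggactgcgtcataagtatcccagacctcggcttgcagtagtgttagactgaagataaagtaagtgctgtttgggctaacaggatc
S100A9: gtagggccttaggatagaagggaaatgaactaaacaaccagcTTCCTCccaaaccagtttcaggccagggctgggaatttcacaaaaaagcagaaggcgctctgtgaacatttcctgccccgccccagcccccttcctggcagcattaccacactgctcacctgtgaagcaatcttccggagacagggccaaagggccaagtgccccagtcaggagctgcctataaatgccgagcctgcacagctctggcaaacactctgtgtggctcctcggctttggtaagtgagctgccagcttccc
TMEM243: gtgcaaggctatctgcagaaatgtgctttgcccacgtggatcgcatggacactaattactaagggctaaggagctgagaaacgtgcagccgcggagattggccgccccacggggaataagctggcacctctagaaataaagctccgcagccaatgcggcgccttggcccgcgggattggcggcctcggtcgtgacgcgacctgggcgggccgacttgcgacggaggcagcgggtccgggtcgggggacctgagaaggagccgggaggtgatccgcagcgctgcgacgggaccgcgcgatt
CKAP4: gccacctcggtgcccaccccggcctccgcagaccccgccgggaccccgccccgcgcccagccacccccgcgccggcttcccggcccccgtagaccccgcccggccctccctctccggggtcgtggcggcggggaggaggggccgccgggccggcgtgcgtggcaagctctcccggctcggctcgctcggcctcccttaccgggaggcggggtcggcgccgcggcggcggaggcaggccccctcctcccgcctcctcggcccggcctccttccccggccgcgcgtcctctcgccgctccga
CLEC5A holds 2 such cores, S100A9 holds 1 and the other promoters hold none. Of the 43 genes that rose 32 had a promoter entry, and 15 of these (46.9%) held GAGGAA on either strand, against 2293 of 8385 tested genes (27.3%). AAATCA was present in 4 of the 32 (12.5%) and in 6.21% of all. TTGCNNAA was present in 3 of the 32 (9.38%) and in 6.91% of all. Of the 16 genes that fell 8 had an entry: 3 held GAGGAA, 3 held AAATCA and 0 held TTGCNNAA. A match of letters shows no binding.

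The alarmins S100A8 and S100A9, which pair to form the calcium-binding protein calprotectin of neutrophils and monocytes, both rose. S100A9 went from 4.30 and 3.84 FPKM in WT to 39.9 and 55.9 in KO (3.25, SE 0.23), and S100A8 from 0.630 and 1.23 to 10.3 and 17.4 (2.92, SE 0.31). Both genes lie on chromosome 1, 29.0 kb apart. None of the other 9 tested S100 genes passed: S100A4, the highest of them, was at 568, 476, 382 and 284 FPKM. Lysozyme (LYZ), an antibacterial enzyme of granulocytes and monocytes, was at 381 and 912 FPKM in KO and at 34.1 and 116 in WT. Its groups did not overlap, and its difference of 3.21 had an SE of 0.71 and missed the threshold.

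CCR2, the receptor of monocytes for the chemokine CCL2, rose from 0.666 and 1.37 FPKM to 10.1 and 10.3 (2.50, SE 0.23). CCL2 fell from 3.44 and 3.005 FPKM to 0.172 and 0.132 (-1.87, SE 0.18). Receptor and ligand thus passed in opposite directions. No other of 12 tested chemoattractant receptors passed; the most abundant, CXCR4, was at 66.8, 96.6, 56.6 and 71.8 FPKM. CCL2 was the only one of 8 tested chemokines to pass. CCL5, the most abundant chemokine, stood at 405, 168, 611 and 207 FPKM, lower in the second library of either genotype, with overlap between KO and WT. The median of the chemokines was -0.48 and ranged from -1.08 to 0.21 when single libraries were left out: the values were 0.12 (KO 2 left out), 0.21 (WT 1), -1.08 (KO 1) and -1.07 (WT 2).

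Several genes best known from lymphocytes rose. CD3G, a chain of the T cell receptor complex, was at 12.9 and 13.6 FPKM in KO and at 1.28 and 1.05 in WT (2.72, SE 0.17). CD2, an adhesion molecule of T and NK cells, was at 3.45 and 3.06 FPKM against 0.0724 and 0.0602 (1.99, SE 0.17). CD79A, a signalling chain of the B cell receptor, was at 7.87 and 8.77 FPKM against 1.79 and 1.43 (1.84, SE 0.18). These were 3 of 9 tested lymphoid markers (0.425% of all tested genes rose), whose median was 0.72. CD2 reached the level for testing only through KO, and CD8A only through WT, so this count and median depend on that level. The markers CD8A, at 0.262 and 0.101 FPKM against 1.34 and 1.12, and NCAM1, at 2.20 and 2.42 against 3.56 and 4.68, were lower in KO without overlap and did not pass. CD3D, another CD3 chain, was already high in WT at 115 and 69.0 FPKM and measured 213 and 173 in KO; CD4 had 44.1, 38.6, 32.8 and 24.7 FPKM. Granzyme A (GZMA), a protease of cytotoxic lymphocytes, was listed at 0 in both WT libraries and at 4.53 and 4.05 FPKM in KO. GIMAP4, a GTPase of lymphocytes, was likewise listed at 0 in WT and at 3.59 and 3.82 FPKM in KO.

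Several other defining markers of lymphoid cells were at or near 0. Summed over all 27 lymphoid markers in the table, the level was 256 to 310 FPKM in KO and 116 to 174 in WT, most of it from CD3D and CD4. CD5, CD7, MS4A1, DNTT and GZMB were listed at 0 in all 4 libraries, and 13 of the 27, among them CD3E and PAX5, were under 0.1 FPKM in all 4. For the 22 monocyte and macrophage markers the sum was 475 to 975 FPKM in KO and 107 to 155 in WT, most of it in KO from LYZ. CD163, MRC1, C1QB and C1QC were listed at 0 in all libraries, CCR2 was the only one of 9 tested to pass, and the median was 0.67. Without KO 1 and without WT 2 that median was 0.04 and 0.03, and without WT 1 it was 1.15. For KO 1 minus WT 1 it was 0.41, and for KO 2 minus WT 2 it was 0.92.

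Transcription factors and chromatin proteins among the rises were few. SOX4, a factor of progenitor cells, was at 24.9 and 21.2 FPKM in KO and at 4.93 and 5.46 in WT (1.95, SE 0.19); it was the only one of 7 tested stem and progenitor markers to pass. CUX2, a homeodomain protein, was at 6.004 and 5.37 FPKM against 0.0385 and 0.00291 (2.71, SE 0.17), at a locus the table shares with 2 other genes. SMARCA1, an ATPase of the ISWI remodelling complexes, was at 4.29 and 3.06 FPKM against 0.0337 and 0.0102 (2.18, SE 0.21). None of 29 tested myeloid transcription factors passed, and their median was -0.01. CEBPE, the factor of granulocyte maturation, had 75.2, 69.4, 34.5 and 39.5 FPKM without overlap (0.95, SE 0.19). CEBPA had 38.9, 55.9, 36.5 and 47.4 FPKM, and SPI1, which encodes PU.1, had 38.8, 49.3, 55.6 and 55.6.

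The partners of LSD1 showed no call. Of 15 tested genes of the CoREST list, KDM1A included, none passed. RCOR1, the scaffold of the complex, was at 14.1 and 16.9 FPKM in KO and at 19.005 and 19.2 in WT. The deacetylase HDAC1 had 89.0, 112, 82.3 and 100 FPKM, and HDAC2 had 61.3, 55.5, 40.1 and 46.7. GFI1, which recruits LSD1 and is known to repress its own gene, was at 98.4 and 98.2 FPKM in KO and at 43.7 and 46.5 in WT. The 4 values of GFI1 fell into 2 tight pairs, but its difference of 1.11 (SE 0.19) missed the threshold (limma adjusted p = 0.128). GFI1B was at 7.16 and 6.07 FPKM against 4.52 and 1.39, and SNAI3 at 7.95 and 8.03 against 7.27 and 7.92. SNAI2 was listed at 0 in both WT libraries and at 2.22 and 3.55 FPKM in KO (limma adjusted p = 0.0555). None of the 4 tested SNAG repressors passed. Their KO values lay above their WT values, as for 18.7% of all tested genes, but those of SNAI3 nearly touched, and SNAI2 reached the level for testing only through KO. The other 7 of the 11 genes on that list were too low to be tested.

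Other large rises fell in varied classes. CT45A5, of a family of cancer/testis antigens on chromosome X with near-identical copies that can share reads, was at 19.2 and 25.1 FPKM against 0.636 and 0.624 (3.82, SE 0.20). It was the only one of 3 tested cancer/testis antigens to pass. TMEM243, a small membrane protein at a locus shared with 2 other genes, had 30.8 and 19.6 FPKM against 1.91 and 1.501 (3.25, SE 0.27). CKAP4, a membrane protein of the endoplasmic reticulum, had 11.4 and 15.9 FPKM against 0.831 and 0.426 (3.16, SE 0.25). SLC18B1, a vesicular transporter of polyamines, was the only one of 194 tested solute carriers to pass, with 7.29 and 6.27 FPKM against 0.0771 and 0.0521 (2.87, SE 0.18). PI16, a peptidase inhibitor, was listed at 0 in both WT libraries and at 6.06 and 5.93 FPKM in KO. KCNG1, a potassium channel subunit, had 6.85 and 7.06 FPKM against 0.555 and 0.115 (2.60, SE 0.23). OTULINL, a catalytically inactive relative of a deubiquitinase, had 15.3 and 17.0 FPKM against 1.802 and 2.05 (2.55, SE 0.18). MCUB, a subunit that lowers the activity of the mitochondrial calcium uniporter, had 5.60 and 8.56 FPKM against 0.263 and 0.531 (2.51, SE 0.25) at a locus shared with 1 other gene.

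A further 23 genes rose, by 1.68 to 2.32, of which GIMAP4, SMARCA1, SIRPB2, CD2, SOX4 and CD79A are described above. The others that are named here are outside the naming rule and were chosen after their values were seen. Enzymes among them are lipoprotein lipase (LPL), at 27.3 and 36.4 FPKM against 5.18 and 6.03, the lysosomal reductase IFI30, the steroid sulfatase STS, the sulfotransferase CHST2 and the dermatan sulfate epimerase DSE. Genes of cytoskeleton, small GTPases and vesicle traffic are RABAC1 (48.9 and 48.9 FPKM against 13.3 and 12.7), RHOH, ARHGAP5, WASF1, ADD2, KIF13A and SYTL3. KCTD12, NAV3, PLEKHA5 and the ion channel MCOLN2 also rose. Of the 43 genes 21 were under 1 FPKM in both WT libraries and so reached the level for testing only through KO. Of these, 3 (PI16, GZMA and GIMAP4) were listed at 0 in WT.

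The granule protein PRG2 and the defensins DEFB1 and DEFA4 fell. PRG2, the major basic protein of eosinophil granules, was at 175 and 217 FPKM in KO and at 1517 and 1713 in WT (-3.04, SE 0.26), the highest level of any gene called. DEFB1, an antimicrobial beta-defensin, was at 3.99 and 3.36 FPKM against 38.7 and 37.7 (-3.07, SE 0.18). DEFA4, a neutrophil alpha-defensin of a family of close copies that can share reads, was at 0 and 0.141 FPKM against 3.03 and 3.31 (-1.96, SE 0.18). PRG2 and DEFA4 were 2 of 16 tested primary granule genes, of which 5 were higher and 5 lower without overlap. Their median was 0.11 and lay between -0.0038 and 0.058 when single libraries were left out. The highest of the other primary granule genes did not pass: MPO as given above, the proteoglycan SRGN at 2801, 2349, 1570 and 1858 FPKM, and the ribonuclease RNASE2 at 359, 335, 173 and 256. Cathepsin G (CTSG), also a marker of promyelocytes, had 9.94 and 27.2 FPKM in KO and 47.9 and 111 in WT without overlap (-2.07, SE 0.60).

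PRG2 was the only one of 7 tested eosinophil, basophil and mast cell markers to pass. The sum over the 18 markers of that list was 681 to 716 FPKM in KO and 1846 to 2077 in WT, most of it in WT from PRG2. Eosinophil peroxidase (EPX), named after its values were seen, had 2.00 and 2.35 FPKM against 11.7 and 20.1 and narrowly missed the threshold (-2.37, SE 0.29; limma adjusted p = 0.0565). RNASE2, an eosinophil protein too, lay the other way (0.72, SE 0.28), and histidine decarboxylase (HDC) overlapped at 131, 86.3, 93.9 and 34.6 FPKM.

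The matrix enzyme PXDN, the proteoglycan SDC2 and the adhesion molecule EPCAM fell. PXDN, a peroxidase that crosslinks collagen IV, was nearly absent in KO at 0.0326 and 0.0144 FPKM and was at 12.7 and 15.4 in WT (-3.87, SE 0.19), the largest fall. SDC2, a heparan sulfate proteoglycan, was at 0.921 and 1.38 FPKM against 7.82 and 9.38 (-2.16, SE 0.21). These were 2 of 26 tested matrix genes and proteoglycans, of which 7 were higher and 7 lower without overlap, and the median of -0.02 equalled that of all genes to 2 decimals. The most abundant of them, the protease inhibitor TIMP1, was at 118, 103, 180 and 113 FPKM. EPCAM, an epithelial adhesion molecule, fell from 10.96 and 12.9 FPKM to 1.73 and 0.726 (-2.57, SE 0.28) at a locus shared with 2 other genes. COL1A2, COL3A1, CDH5, KRT14 and KRT19, which mark fibroblasts, endothelium and epithelium, were listed at 0 in all 4 libraries.

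Signalling genes, ligands and channels also fell. BMP2, a ligand of the BMP pathway, was at 0.0105 and 0.0565 FPKM in KO and at 3.29 and 3.89 in WT (-2.15, SE 0.18). It was the only one of 20 tested genes of BMP and TGF-beta signalling to pass; the antagonist of BMP ligands NOG had 21.3 and 14.9 FPKM against 6.03 and 4.56 without passing (1.59, SE 0.25). RET, the receptor of the GDNF family, was at 6.18 and 6.77 FPKM against 20.6 and 21.3 (-1.55, SE 0.17). It stood on the PML and retinoid list but is itself neither a PML nor a retinoid receptor gene. No other of the 14 tested genes on that list passed. KCNH2, the potassium channel known as hERG, was at 1.25 and 1.90 FPKM against 15.1 and 23.05 (-2.95, SE 0.27), while KCNG1 was the other of 14 tested potassium channel genes to pass and rose. CAMK1, a calmodulin-dependent kinase at a locus shared with 1 other gene, was at 4.42 and 3.65 FPKM against 16.4 and 14.4 (-1.71, SE 0.19). GAPT, an adaptor that binds GRB2, was at 2.54 and 1.69 FPKM against 14.3 and 14.7 (-2.33, SE 0.21).

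The last falls were ALDH2, the mitochondrial aldehyde dehydrogenase, at 3.26 and 2.46 FPKM against 12.8 and 14.8 (-1.94, SE 0.20), and POPDC3, a membrane protein that binds cyclic AMP, at 0 and 0.0433 FPKM against 3.20 and 2.84. RAB3C, a GTPase of vesicle release, and EMC10, a subunit of the membrane protein insertion complex of the endoplasmic reticulum, were listed at 0 in both KO libraries. RAB3C had 8.61 and 4.62 FPKM in WT, and EMC10 had 5.12 and 7.69 at a locus shared with 2 other genes. No fold is given for genes listed at 0 in a group. Among the genes that fell, PXDN, RAB3C, EMC10, BMP2, POPDC3, DEFA4 and CCL2 were under 1 FPKM in both KO libraries. They reached the level for testing only through WT.

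Some called genes were neighbours, with coordinates in the deposited build hg18. IGSF3 (chromosome 1, 116918554 to 117011837) and CD2 (117098609 to 117113371) both rose and lie 86.8 kb apart with no tested gene between them. GAPT (chromosome 5, 57825203 to 57828674) and RAB3C (57914696 to 58183162) both fell and lie 86.0 kb apart. CD79A and RABAC1 on chromosome 19 both rose and lie 75.4 kb apart, with 1 tested gene between them. DEFB1 and DEFA4 on chromosome 8 both fell and lie 57.8 kb apart, with no tested gene between them. On chromosome 7 GIMAP4 rose and KCNH2 fell, 371 kb apart with 2 tested genes between them. PRG2 (chromosome 11, 56910843 to 56914688) fell while RTN4RL2, 70.2 kb further on (56984893 to 57001005), rose.

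Genes of cholesterol synthesis lay lower in KO, with none past the threshold. Of 25 tested genes of cholesterol synthesis 19 were lower in both KO libraries than in both WT libraries, where 16.8% of all tested genes were, and the median was -0.61. The size depended on the library: the median was -0.91 for KO 1 minus WT 1 and -0.26 for KO 2 minus WT 2, and it ranged from -0.92 without WT 2 to -0.32 without WT 1. HMGCS1, which makes HMG-CoA, was at 60.8 and 57.9 FPKM in KO and at 191 and 92.1 in WT. FDPS, which makes farnesyl pyrophosphate, was at 98.1, 103, 226 and 123 FPKM, and FDFT1, the first enzyme on the sterol branch, was at 122, 134, 229 and 160. In each of the 3 genes WT 1 was above the other libraries. The regulator SREBF2, outside the naming rule, was at 42.9, 43.9, 42.2 and 40.2 FPKM.

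Cytosolic ribosomal protein genes lay higher, again with none past the threshold. Of 67 tested 65 had a difference above 0, with a median of 0.42, but only 9 were higher without overlap (13.4%, where 18.7% of all tested genes were). RPS6 was at 19588, 10434, 12896 and 7169 FPKM, highest in KO 1 and lowest in WT 2. The median of the ribosomal genes was 0.49 for KO 1 minus WT 1 and 0.33 for KO 2 minus WT 2. Within a genotype it was 0.82 for KO 1 minus KO 2 and 0.67 for WT 1 minus WT 2. Leaving out 1 library unbalances the replicate numbers. The median of KO minus WT was then 0.00 (KO 1), 0.78 (KO 2), 0.75 (WT 1) and 0.12 (WT 2). After quantile normalization of all 4 libraries it was 0.13. The medians of 47 genes of DNA replication and 36 of mitosis were -0.06 and -0.12, and none of these genes passed. For KO 1 minus WT 1 these medians were -0.15 and -0.21, and for KO 2 minus WT 2 they were 0.05 and -0.07. Both medians were above 0 without KO 1 (0.26 and 0.11) or without WT 2 (0.16 and 0.04). They were below 0 without KO 2 (-0.31 and -0.29) or without WT 1 (-0.19 and -0.22).

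**Figure D2:**
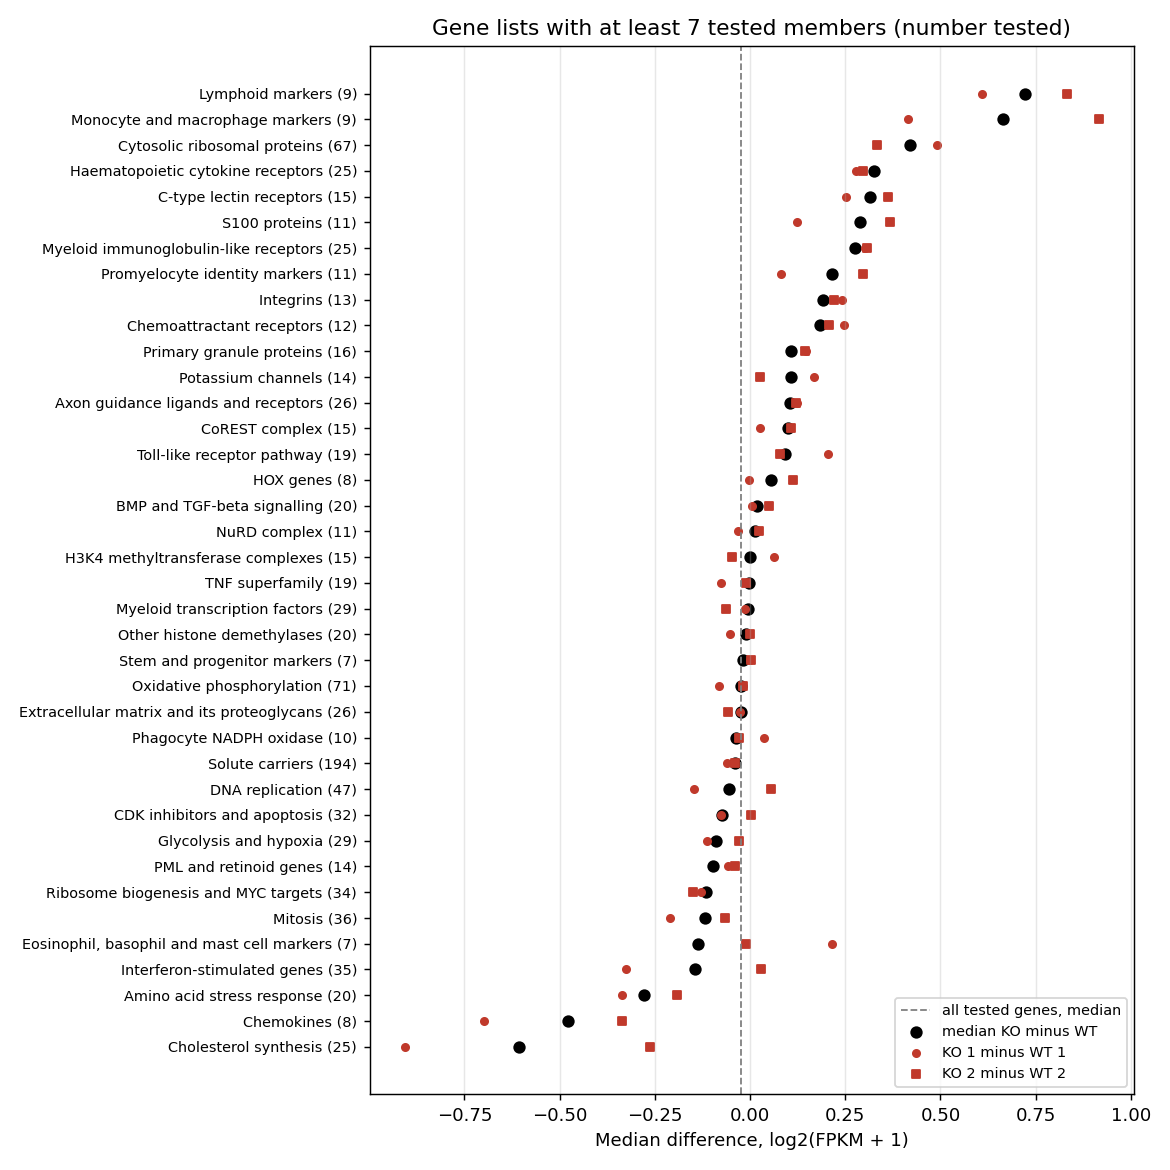
Median difference on the log2(FPKM + 1) scale for the gene lists with at least 7 tested members: black points for KO minus WT, red circles for KO 1 minus WT 1 and red squares for KO 2 minus WT 2; the dashed line is the median of all tested genes. Lymphoid markers lie highest (0.72) and cholesterol synthesis lowest (-0.61), and the red points of cholesterol synthesis lie far apart.

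Median differences varied by chromosome. The median difference was 0.25 over 765 tested genes of chromosome 19, 1.19-fold on the FPKM + 1 scale, and -0.29 over 99 genes of chromosome 21. On chromosome 19, 42.1% of the genes were higher and 3.79% lower without overlap, and on chromosome 21, 4.04% were higher and 46.5% lower. Chromosome 10 had a median of 0.14 over 401 genes. Chromosome 3 split at about 60 Mb, a boundary set after the data were seen: 258 genes before it had a median of -0.15 and 299 genes after it had a median of 0.24. All 6 windows of 10 Mb before the boundary were below 0 and all 14 after it were above 0. The medians of the other chromosomes lay between -0.12 and 0.03, but single windows and runs of windows stood apart. On chromosome 13 the 4 windows after 70 Mb that hold tested genes had medians of 0.16 to 0.44, each over fewer than 20 genes, and earlier windows lay between -0.14 and 0.01. On chromosome 5 the first window and the fourth and the fifth had medians of -0.38, -0.29 and -0.22. On chromosome 7 all windows from the ninth on were below 0, with medians of -0.31 to -0.01, and earlier windows lay between -0.14 and 0.03. On chromosome 9 the first window and the second and the third had medians of 0.26, 0.21 and 0.13. Of 195 windows with at least 20 genes 14 had a median of at least 0.2, 12 of them on chromosomes 3, 10 or 19, and 8 had a median of -0.2 or less.

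Both replicate numbers gave these values: chromosome 19 had 0.22 for KO 1 minus WT 1 and 0.28 for KO 2 minus WT 2, and chromosome 21 had -0.29 and -0.28. Between libraries of 1 genotype the chromosome medians ranged from -0.19 to 0.03. Of the 59 called genes 7 lie on chromosome 3 after the boundary (CHST2), on chromosome 10 (RET), on chromosome 19 (ADGRL1, IFI30, CD79A, RABAC1 and EMC10) or on chromosome 21 (none). These regions hold 299, 401, 765 and 99 of the 10110 tested genes, so the called genes were not concentrated there. KCTD12 lies in the eighth window of chromosome 13, one of those with a raised median. Without chromosomes 3, 10, 19 and 21, a fit over 8288 genes called 37 higher (0.446%) and 13 lower (0.157%), against 0.425% and 0.158% in the main fit. DNA copy number was not measured in the data analysed here, and its part in these differences was not tested.

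**Figure D3:**
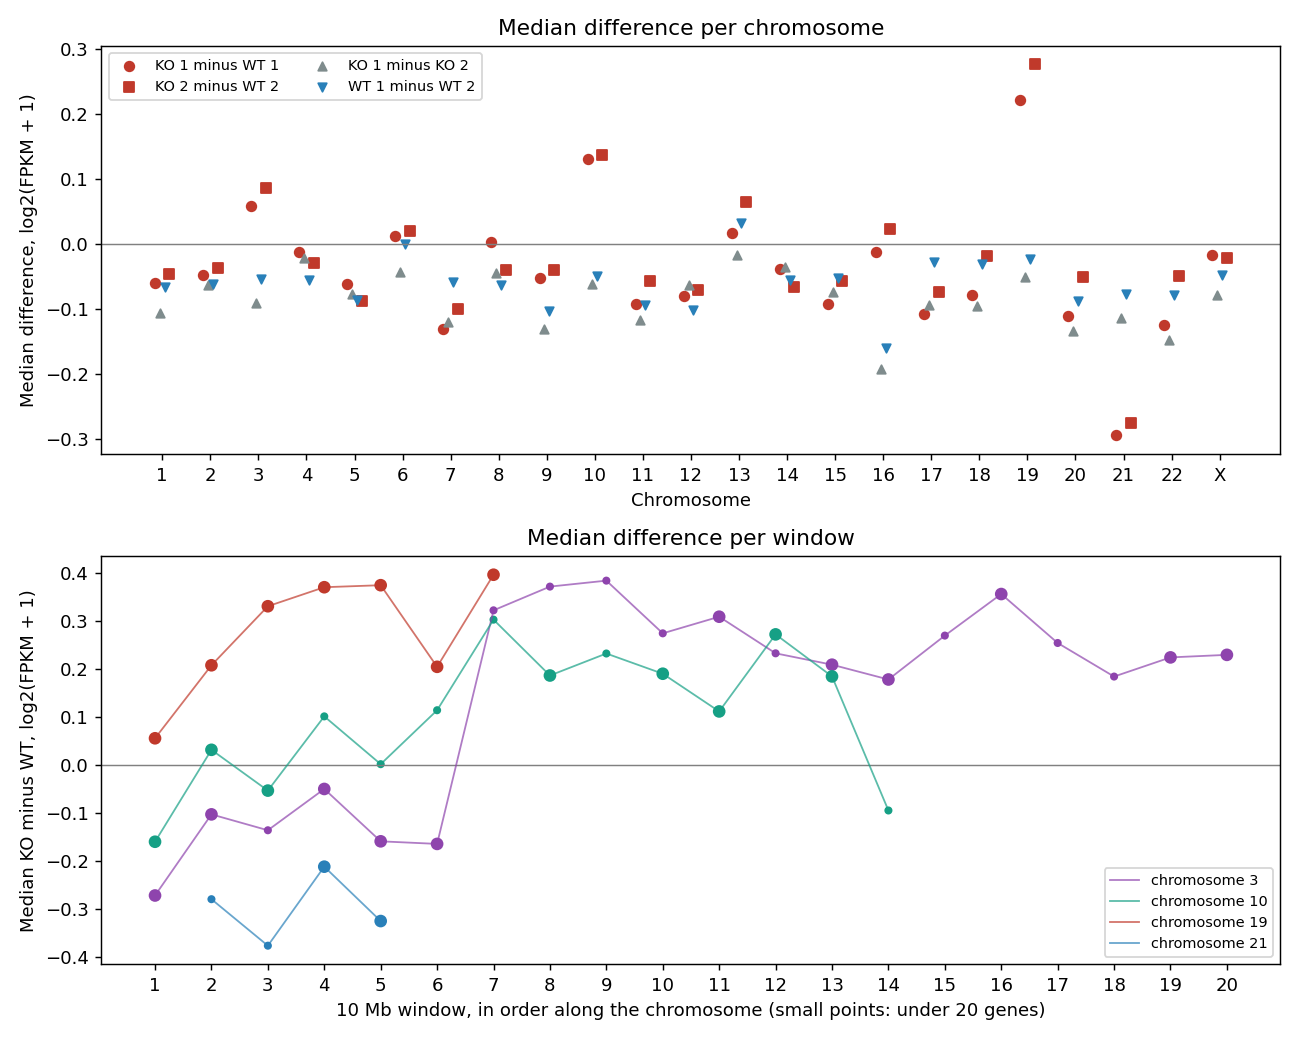
Top: median difference on the log2(FPKM + 1) scale per chromosome, in red for KO minus WT at each replicate number, with grey and blue triangles for the 2 libraries of 1 genotype. Bottom: median KO minus WT in 10 Mb windows in order along chromosomes 3, 10, 19 and 21. Chromosome 19 lies above and chromosome 21 below the others at both replicate numbers, and chromosome 3 steps from below 0 to above 0 between its sixth and its seventh window.

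The genes called in KO cells were also read in NB4 cells treated with the LSD1 inhibitor MC_2580. That table was normalized separately and has 1 library per treatment, so the values are given without a test, and all 4 treatments are set against the same DMSO library. Of the 43 genes that rose in KO, 13 (30.2%) were at least 2-fold higher on the FPKM + 1 scale with MC_2580 than with DMSO, where 0.693% of 9662 tested genes were, and 0 were 2-fold lower. Of the 43 genes 40 had a value above 0 and the median was 0.53, against -0.02 for all tested genes. KDM1A was at 69.9 FPKM with DMSO and at 66.9 with MC_2580. Of the 16 genes that fell in KO, 0 were 2-fold higher and 1, DEFA4, was 2-fold lower with MC_2580, where 0.0207% of all tested genes were lower. At 1.5-fold 21 of the genes that rose were higher with MC_2580 (2.47% of all tested genes) and 4 of those that fell were lower (0.31%); at 4-fold these were 3 (0.0828%) and 0 (0.0103%).

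The 13 genes include S100A9 (2.44 FPKM with DMSO and 17.1 with MC_2580), TMEM243 (1.95 and 17.6), RTN4RL2 (2.69 and 11.8) and PI16 (listed at 0 and 3.66). Also among them are S100A8, CHST2, MCUB, OTULINL, STS, IGSF3, SIRPB2, KCNG1 and SYTL3. CLEC5A was at 0.679 and 2.11 FPKM and CCR2 at 0.273 and 1.05, below 2-fold on this scale. Other large rises of the KO cells had small values: CT45A5 was at 0.346 and 0.382 FPKM, CD3G at 0.418 and 0.239, and CLECL1 at 1.95 and 2.19. Of the largest falls, PXDN was at 13.9 FPKM with DMSO and 14.4 with MC_2580, PRG2 at 1294 and 1075, EPCAM at 8.75 and 9.68, and RAB3C at 6.69 and 6.78.

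**Figure D4:**
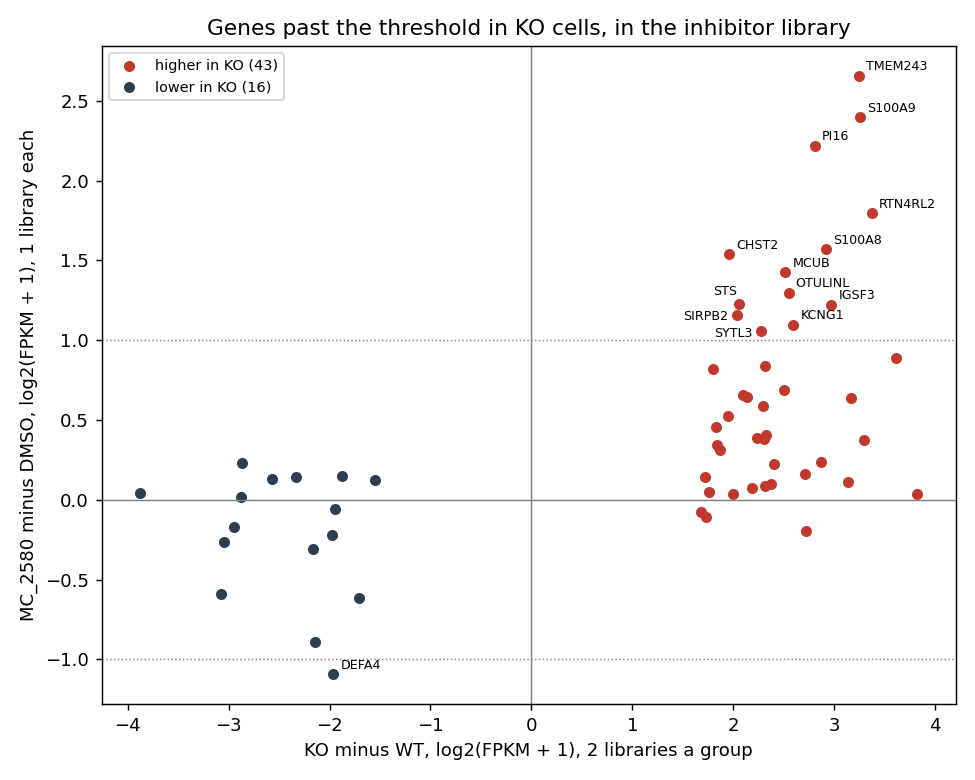
Difference between KO and WT (horizontal, 2 libraries a group) against the difference between MC_2580 and DMSO (vertical, 1 library each), both on the log2(FPKM + 1) scale, for the 43 genes that rose (red) and the 16 that fell (dark blue) in KO cells. Dotted lines mark 2-fold; the 13 named red points lie above the upper line and DEFA4 lies below the lower one.

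RA gave another pattern in the same genes. With RA at 1 uM, 6 of the 43 genes were 2-fold higher and 3 lower, where 5.14% and 2.68% of all tested genes were. Among the 6 were S100A8, S100A9, CD79A, IFI30 and KCTD12, and S100A9 reached 430 FPKM. With RA at 0.01 uM 5 were higher and 4 lower, where 3.82% and 2.76% of all tested genes were. The combination had 17 of the 43 genes (39.5%) 2-fold higher, where 7.58% of all tested genes were, and 1 lower, where 3.47% were. PI16 was listed at 0 with either dose of RA alone and at 39.6 FPKM in the combination. Among the genes that fell in KO, CCL2 was at 2.12 FPKM with DMSO and 854 with RA at 1 uM, and DEFA4 at 2.18 and 389. KCNH2 was at 24.5 FPKM with DMSO, 5.88 with RA at 1 uM and 2.32 in the combination. Of the 16 genes that fell in KO, 3 were 2-fold lower and 3 higher with RA at 0.01 uM, 3 lower and 4 higher with RA at 1 uM, and 4 lower and 3 higher in the combination, beside the shares of all tested genes given above. At 4-fold 0 were lower with RA at 0.01 uM (0.3% of all tested genes), 0 with RA at 1 uM (0.331%) and 2 in the combination (0.373%).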

How the data were processed

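RNA of NB4 cells was made into libraries with the TruSeq V2 kit, per the labels' protocols. The expression values the authors deposited are FPKM, per the file headers in the layout of Cuffdiff; per the submitters' processing notes the tools were TopHat 1.3.1 and TopHat2 2.0.10, CASAVA 1.8, Cuffdiff and Cufflinks on build hg18, with no role or order given. Annotation and scaling are not stated in any source used here. In the knockout table, of 36119 loci, 0.001 FPKM stands on every value and was taken off. The authors also deposited fold changes on a log2 scale, p-values, q-values and significance calls, of which the calls were used here. Symbols were matched to RefSeq names and synonyms, which changed the name of 1513 tested genes; 2 loci with a failed status and a value of 0 were left out, and 3285 tested genes (11 of the called) share their locus with another gene. The KO and WT groups were tested on log2(FPKM + 1) with limma 3.58.1 in R 4.3.3 with a mean-variance trend, two-sided, with Benjamini-Hochberg adjustment over 10110 genes at 0.05. With 2 libraries a group the smallest exact permutation p of a single gene is 0.333, so no such test is given. Read totals are not known, so no counting interval was computed. In a simulation of 9950 tested genes, 50 were changed per size. Of these 16 (2-fold), 48 (4-fold), 50 (16-fold) and 50 (64-fold) were recovered with 2 false calls. Its deviations were drawn separately for each library, while in the data libraries of the same replicate number deviated together. The choice of protein-coding genes and the 44 gene lists were made with earlier results of these data known. Named are KDM1A, the 20 largest rises and falls past the threshold without overlap, list members that passed, and up to 4 further members per list, the highest by mean FPKM or from the CoREST, SNAG and promyelocyte lists. A gene that passed is counted but not reported here by name. Tables and plots were made with pandas 2.3.3, matplotlib 3.10.9 and numpy 2.4.6 in Python 3.11.15.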

Additional observations from a re-analysis of the deposited data

How the results depend on the processing

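The limits are 2 libraries a group, unknown read totals and the low level of many called genes. Against 43 genes higher and 16 lower, the count was 16 and 12 with no filter on low values, 23 and 6 at a group mean of at least 5 FPKM, 23 and 7 after rescaling to 1 median, 29 and 14 after quantile normalization, 36 and 12 with robust limma, 8 and 7 over all loci, 48 and 18 with a pseudocount of 0.1 and 45 and 16 with 0.5. Leaving out each library gave 88 to 252 higher and 34 to 118 lower. Of the 59 called genes none reversed in a fit that tested it, and 55 lost their call over all loci, 41 with no filter, 29 after rescaling, 17 after quantile normalization, 30 at 5 FPKM (17 still tested and 13 no longer tested), 11 with robust limma, 5 with a pseudocount of 0.1 and 2 with 0.5. The cause was not tested. KDM1A passed after quantile normalization (-1.82, limma adjusted p = 0.0467). Its difference ranged from -2.05 to -1.64 when 1 library was left out. The median of chromosome 19 ranged from 0.20 to 0.31 when a library was left out. The fit without chromosomes 3, 10, 19 and 21 was chosen after seeing the data.

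The labels do not say that replicate numbers pair libraries. Over genes, KO 1 minus KO 2 correlated with WT 1 minus WT 2 at r = 0.84, and a fit with the replicate number as a block called 1553 genes higher and 1350 lower, with all 59 among them, and KDM1A at -1.84 (limma adjusted p = 7.05e-06).

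Of the 43 genes that rose, 21 were higher with MC_2580 at 1.5-fold and 3 at 4-fold. Of the 16 that fell, 4 were lower with MC_2580 at 1.5-fold and 0 at 4-fold; at 4-fold 0 were lower with RA at 0.01 uM, 0 with RA at 1 uM and 2 in the combination.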
